A study of Mus musculus with 14 samples.

Results

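Plasma cell regulators and markers were followed through 10 of the 18193 genes with a probe set of their own, in sorted germinal centre B cells of mice that differed in the number of intact Crebbp alleles. The genes are Prdm1, Irf4, Xbp1, Ell2, Sdc1, Tnfrsf17, Slamf7, Jchain, Mzb1 and Derl3, and they are regulators and markers known from the plasma cell field, picked with the opposite directions of Sdc1 and Irf4 in these data already known. They are measured by 18 of the 45101 probe sets of an Affymetrix mouse genome array, each annotated to 1 of these genes alone. A plasma cell is the antibody-secreting end stage of the B cell lineage. Germinal centre B cells that leave the reaction along this path induce IRF4 and then BLIMP1, the product of Prdm1, which shuts off B cell genes, while XBP1 builds up the endoplasmic reticulum that secretion needs. CREBBP is a lysine acetyltransferase and transcriptional coactivator whose gene is a frequent target of mutation in human B cell lymphoma. The comparisons ask how the plasma cell genes stood in cells with 1 or both Crebbp alleles floxed, relative to cells with neither.

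One array was hybridised per mouse, from 14 C57BL/6x129Sv mice of 8 to 12 weeks. All of them, wild-type controls included, carried the Cg1-Cre deletor, which recombines floxed DNA in B cells activated in the germinal centre reaction. Wild-type mice (Crebbp+/+ Cg1-Cre, WT) had 0 floxed alleles (n = 4, 1 male), heterozygous mice (Crebbpfl/+ Cg1-Cre, HET) had 1 (n = 5, 2 males) and knockout mice (Crebbpfl/fl Cg1-Cre, KO) had 2 (n = 5, 3 males). Sheep red blood cells were injected on days 0 and 5, the spleen was taken on day 12, and cells were sorted as B220+CD95+PNA+. Plasma cells are known to lower B220, so the gate favours cells that have not completed this path. In bulk samples fewer cells of a type and less RNA per cell cannot be told apart.

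Values are log2 intensities, so 1 unit is a 2-fold difference, and levels are compared between mice for the same probe set only. All 4 Crebbp probe sets had negative KO values, from -0.30 to -0.86, and 1 of them was called (limma adjusted p = 0.00168), at 55.0% of the WT intensity. In HET they stood at 79.1% to 92.2% of WT, with 0 called. The floxed exon is not given in the labels, so these values check the genotype in direction only. All 7 germinal centre markers on the array (Bcl6, Fas, Mybl1, S1pr2, Gcsam, Rgs13 and Mef2b) lay above 6.43, the median of the probe set means, though Rgs13 itself fell in KO by 0.62 (not called without WT 3 or WT 4). The same held for all 5 B lineage markers, among them Cd79a and Ms4a1. None of the 4 erythroid and 3 natural killer cell markers did so in the mean over the arrays. Above that median were 3 of 7 T cell, 5 of 8 myeloid, 3 of 5 dendritic cell and 1 of 4 platelet markers. All 5 follicular and marginal zone B cell markers were above it too. On single arrays the natural killer cell genes Gzma and Nkg7 reached 9.45 and 8.04, and the myeloid genes Lyz2 and S100a9 reached 10.32 and 10.26. The summed linear intensity of the natural killer cell markers ranged from 60.3 to 890 in WT, 58.3 to 487 in HET and 52.6 to 958 in KO, with KO 1 (958) and WT 3 (890) highest. That of the myeloid markers ranged from 1291 to 2858 in WT, 1283 to 2628 in HET and 1301 to 2443 in KO. T cell markers summed to 608 to 669 in WT, 498 to 705 in HET and 444 to 804 in KO, and 1 of them, Lat, fell in KO by 0.47 (not called without WT 1, WT 4 or KO 4). The part of these markers in the values of the 10 genes was not tested. Array KO 3 resembled the rest least, with a median correlation of 0.979, where the other 13 had 0.984 to 0.990.

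Sdc1 rose in KO cells, by 0.81 log2 units, and no other plasma cell gene passed the test. In limma, with the adjustment run over all 10225 genes tested, 1 of 9 members was thus called. Of all genes 2.44% were called in this comparison, 1.17% as higher and 1.26% as lower. At an unadjusted p under 0.05 there were 2 members, Sdc1 and Irf4, against 13.1% of all genes. The directions of these 2 genes were known when the members were picked, so the counts are a description only. Of the 9 values 7 had a negative sign, led by Irf4 (-0.30), Derl3 (-0.29) and Prdm1 (-0.28), and none of these 7 passed. The median change of the 9 was -0.08, against 0.00 for all genes tested. Tnfrsf17 was too dim for the filter on low values and was measured only as a probe set. The plot of member levels by genotype shows every mouse.

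**Figure D1:**
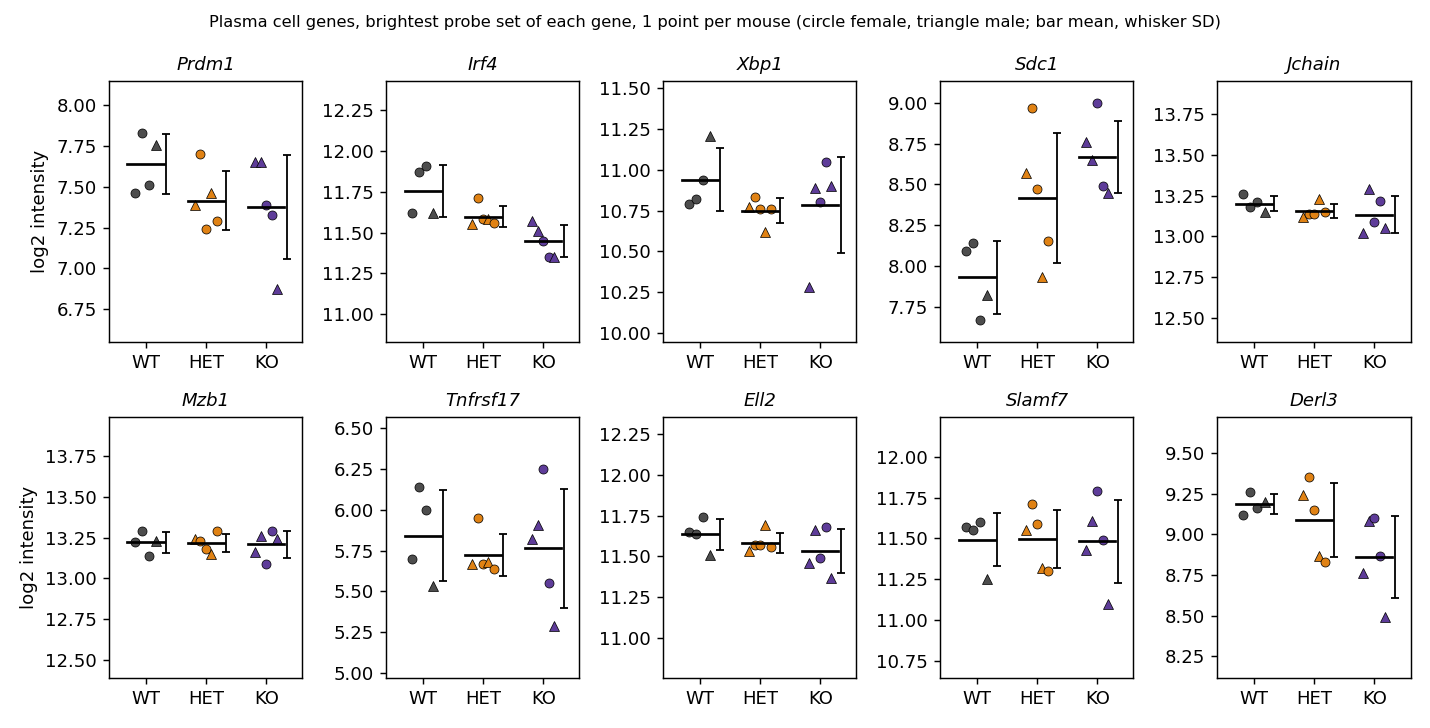
Log2 intensity (y axis) of the 10 genes in WT, HET and KO mice (x axis), 1 point per mouse for the brightest probe set of each gene, with the group mean and SD. KO mice lie above all WT mice for Sdc1 (8.45 to 9.00 against 7.67 to 8.14) and below them for Irf4 and Derl3, while Jchain stays within 13.02 to 13.29 and Mzb1 within 13.09 to 13.29.

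The 250 bases before the start site are shown for Sdc1 and Irf4, the genes with the largest values in each direction, and for Ell2, the member whose window held a cyclic AMP response element. CREB, the factor that gave CREBBP its name, binds this element. The sequences are those of RefSeq for GRCm38.p6, at chr12:8771146-8771395 (Sdc1), chr13:30748983-30749232 (Irf4) and chr13:75707234-75707483 (Ell2), all on the plus strand, written 5′ to 3′ with matches to the searched motifs in capitals.
Sdc1: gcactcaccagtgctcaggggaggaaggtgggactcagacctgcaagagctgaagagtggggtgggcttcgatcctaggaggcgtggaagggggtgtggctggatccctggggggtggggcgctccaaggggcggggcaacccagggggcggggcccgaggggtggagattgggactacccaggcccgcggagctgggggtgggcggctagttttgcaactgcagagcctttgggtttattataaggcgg
Irf4: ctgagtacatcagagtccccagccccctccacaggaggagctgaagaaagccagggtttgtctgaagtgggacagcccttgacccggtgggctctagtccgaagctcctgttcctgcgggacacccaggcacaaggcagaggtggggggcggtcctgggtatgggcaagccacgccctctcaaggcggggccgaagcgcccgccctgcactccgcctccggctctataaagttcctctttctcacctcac
Ell2: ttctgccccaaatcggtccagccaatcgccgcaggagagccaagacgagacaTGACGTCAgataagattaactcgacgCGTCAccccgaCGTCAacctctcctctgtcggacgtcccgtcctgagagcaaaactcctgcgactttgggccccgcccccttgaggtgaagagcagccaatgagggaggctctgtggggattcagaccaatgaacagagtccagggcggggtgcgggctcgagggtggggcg
All 3 windows are richer in G and C than most, with 66.0% for Sdc1, 63.6% for Irf4 and 61.2% for Ell2, against a median of 52.4% over all promoter windows. Sdc1 has 10 CpG dinucleotides, Irf4 11 and Ell2 19, against a median of 6. The motifs were searched on both strands, in windows that reach from 250 bases before to 50 bases after the start. The full element TGACGTCA lay in the Ell2 window at position -198 from the start and in 1.8% of 32544 promoter windows. The shorter core TGACG, which overlaps it, lay in the windows of Ell2, Prdm1 and Jchain among the 9 members with a window, and in 20.9% of all windows. The unfolded protein response element TGACGTGG (0.682% of windows) and the BLIMP1 core AGTGAAAG (1.32%) were found in 0 members, and the interferon-response-like GAAANNGAA (8.53%) in Tnfrsf17 alone. A match is a run of letters, and no binding was measured here.

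Among the transcription factors, Irf4 is induced by antigen receptor and CD40 signals and at high dose drives plasma cell fate. As with Prdm1 and Ell2, its group mean was lowest in KO mice. Its brightest probe set gave 11.62, 11.87, 11.91 and 11.62 in the WT mice. The HET mice gave 11.55, 11.71, 11.58, 11.58 and 11.56, and the KO mice 11.57, 11.51, 11.45, 11.35 and 11.35. Every KO mouse lay below every WT mouse, as was so for 3.65% of the genes tested, and HET 2 was the one HET mouse within the WT range. The KO change was -0.30 (SE 0.08, 95% confidence interval -0.48 to -0.12), 0.814-fold, and did not pass over all genes (limma adjusted p = 0.0842). Among the alternatives it passed only without sex as a covariate, at -0.31 (limma adjusted p = 0.0426). With 1 mouse left out it passed in 0 of 14 fits (limma adjusted p from 0.0629 to 0.225). The HET change was -0.15 (SE 0.08) and that of KO against HET -0.14 (SE 0.08, adjusted p = 0.891). The per-allele trend was -0.15 (SE 0.04, limma adjusted p = 0.0602). With 1 mouse left out this trend passed in 1 of 14 fits, that without KO 1 (limma adjusted p = 0.0435). The second Irf4 probe set lay below the filter and its groups overlapped, with means of 6.01 ± 0.16 (SD, n = 4) in WT, 6.10 ± 0.15 (SD, n = 5) in HET and 5.80 ± 0.21 (SD, n = 5) in KO.

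Prdm1 encodes BLIMP1, the repressor that ends the B cell programme. Its values were 7.46, 7.83, 7.51 and 7.76 in WT, and 7.39, 7.70, 7.24, 7.46 and 7.29 in HET. In KO they were 7.65, 7.65, 7.39, 7.33 and 6.87. The groups overlapped, and the lowest value of all was that of KO 5. The KO change of -0.28 (SE 0.16) did not pass (limma adjusted p = 0.515), and its 95% interval of -0.62 to 0.06 includes both no change and a fall to 0.649 of the WT level. Xbp1, the unfolded protein response factor that expands the secretory apparatus, has 4 probe sets. On all 4 of them the highest WT value came from WT 4 and the lowest KO value from KO 1, and the groups overlapped. On the brightest, WT mice had 10.79 to 11.21, HET mice 10.62 to 10.83 and KO mice 10.28 to 11.05. The KO changes of the 4 probe sets were -0.18, -0.15, -0.16 and -0.13, none of them called. The value of the brightest turned to 0.028 without WT 4, so its sign rests on that mouse. Ell2, an elongation factor that favours the secreted form of immunoglobulin heavy chain mRNA, had 11.51 to 11.74 in WT, 11.53 to 11.69 in HET and 11.37 to 11.68 in KO. Its KO change was -0.08 (SE 0.08, 95% interval -0.25 to 0.08). The second Ell2 probe set was dim, with means from 4.08 to 4.25 in the 3 groups.

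Sdc1 encodes syndecan-1 (CD138), a heparan sulphate proteoglycan that serves as the standard surface marker of plasma cells. Its brightest probe set gave 8.09, 8.14, 7.67 and 7.82 in WT mice. The HET mice gave 8.57, 8.97, 8.47, 7.93 and 8.15, and the KO mice 8.76, 8.65, 9.00, 8.49 and 8.45. All 5 KO mice lay above all 4 WT mice, as was so for 2.87% of the genes tested, while HET mice spread over both ranges. The rise was 1.75-fold (95% interval 1.32 to 2.31), or 0.81 log2 units (SE 0.19, limma adjusted p = 0.0404). Relative to WT, HET cells differed by 0.52 (SE 0.18, 95% interval 0.13 to 0.91, unadjusted p = 0.0132). Limma called 0 genes in HET against WT, which is 0% of those tested, with 280 genes (2.74%) at an unadjusted p under 0.05. None of the 9 members had separate HET and WT ranges, where 1.03% of all genes had all HET mice higher and 0.469% all HET mice lower. KO against HET, where 0.264% of genes were called, gave 0.29 (SE 0.17, limma adjusted p = 0.993), with an interval of -0.08 to 0.66 that leaves the step from 1 to 2 floxed alleles unresolved. The trend was 0.40 per floxed allele (SE 0.09, limma adjusted p = 0.0313), where 3.04% of genes were called, 1.42% as higher. The KO and HET comparisons share the WT mice.

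The Sdc1 probe sets were not uniform, as the plot of single probe sets shows. On the probe set 1437279_x_at the means were 6.24 ± 0.29 (SD, n = 4) in WT, 6.58 ± 0.44 (SD, n = 5) in HET and 6.99 ± 0.18 (SD, n = 5) in KO, a KO change of 0.75 (SE 0.21). The probe set 1415944_at went from 6.70 ± 0.08 (SD, n = 4) in WT to 7.05 ± 0.18 (SD, n = 5) in KO, a change of 0.37 (SE 0.12). Both had all KO mice above all WT mice, as 1.53% of all probe sets had, by a margin of only 0.01 in the latter case. The probe set 1448158_at, the only one of the 4 below the filter, had overlapping groups and a change of 0.01 (SE 0.11). Its means were 6.01 ± 0.13 (SD, n = 4) in WT, 5.85 ± 0.18 (SD, n = 5) in HET and 5.98 ± 0.18 (SD, n = 5) in KO. The filter takes the mean over all arrays, so higher HET and KO values count towards passing it. The probe set 1437279_x_at passed with a mean of 6.63, though its WT mean of 6.24 lay below the filter. The filter therefore does not set 1448158_at apart independently of the change itself. With all 45037 probe sets tested, 0.315% were called, and 0 of the 18 member probe sets passed in limma. At an unadjusted p under 0.05 there were 4 member probe sets, all of Sdc1 or Irf4, against 6.75% of all probe sets. As the members were picked with these 2 genes in view, that count is a description only. The ranges lay apart with KO lower for 2 member probe sets, those of Irf4 and Derl3, and for 1.78% of all probe sets. The lowest adjusted p was 0.126, for the brightest Sdc1 probe set. The call of Sdc1 was also lost when any 1 of WT 1, WT 2, WT 3, WT 4, HET 3, KO 1, KO 2 or KO 3 was left out (adjusted p from 0.0607 to 0.118), with the change staying between 0.71 and 0.92. The trend call was lost without WT 1, WT 3, WT 4, KO 1, KO 2 or KO 3.

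**Figure D2:**
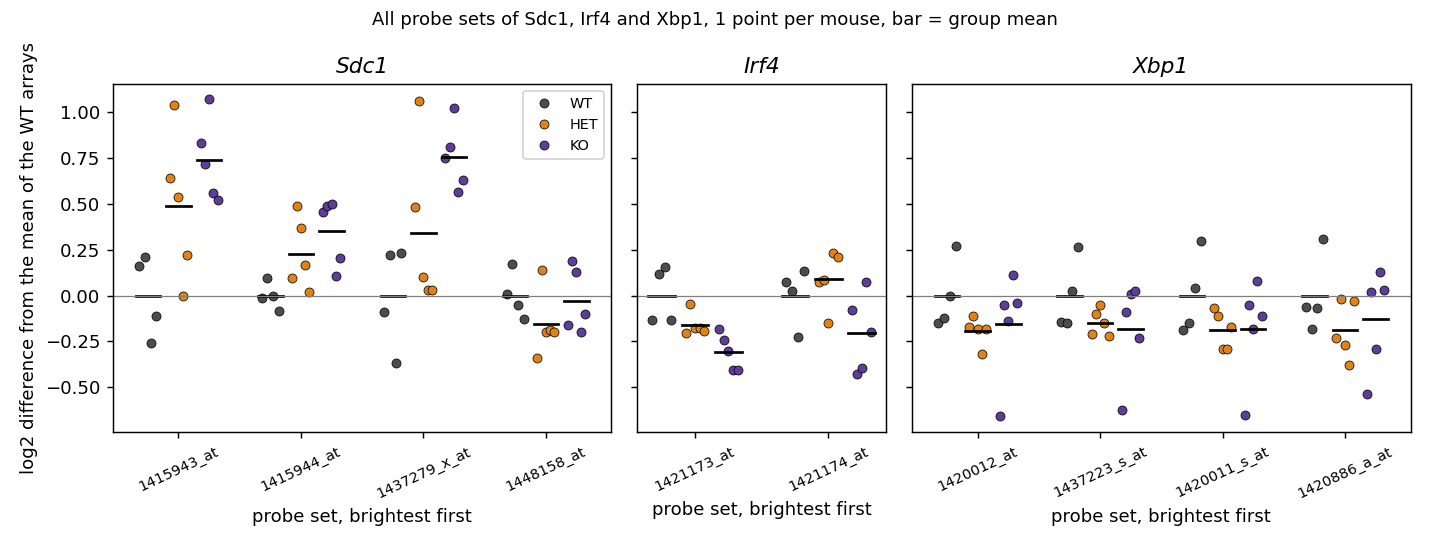
Log2 difference from the WT mean (y axis) for each probe set (x axis, brightest first) of Sdc1, Irf4 and Xbp1, with 1 point per mouse and a bar at the group mean. The KO mice are raised on 3 of 4 Sdc1 probe sets, whereas on all 4 Xbp1 probe sets KO 1 is the lowest KO mouse.

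The other surface markers gave KO values near 0. Tnfrsf17 encodes BCMA, a receptor for the survival factors BAFF and APRIL on plasma cells. Its single probe set lay below the filter, with 5.53 to 6.14 in WT, 5.64 to 5.95 in HET and 5.29 to 6.25 in KO, and a KO change of 0.00 (SE 0.17). Slamf7 encodes an adhesion receptor of the SLAM family carried by plasma cells and some other leukocytes. It had 11.25 to 11.60 in WT, 11.30 to 11.71 in HET and 11.10 to 11.79 in KO, and its KO change was 0.07 (SE 0.12, limma adjusted p = 0.913). Both sets of groups overlapped throughout.

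Of the genes of antibody assembly and secretion, Jchain and Mzb1 varied little between mice and Derl3 more. Jchain, which links IgM and IgA into polymers, had 13.26, 13.18, 13.21 and 13.15 in WT. It had 13.12 to 13.23 in HET and 13.02 to 13.29 in KO, and its KO change was -0.06 (SE 0.07, 95% interval -0.20 to 0.09). Mzb1, a chaperone of the endoplasmic reticulum that assists IgM secretion, had 13.14 to 13.29 in WT, 13.15 to 13.29 in HET and 13.09 to 13.29 in KO. Its KO change was -0.01 (SE 0.06, 95% interval -0.14 to 0.12), so a change of the size seen for Sdc1 lies outside the intervals of both genes. Both lie near the top of the array scale, where a bright probe set can compress a difference. Derl3, which takes part in moving misfolded proteins out of the endoplasmic reticulum, had 9.12, 9.26, 9.16 and 9.20 in WT, and 9.24, 9.35, 9.15, 8.87 and 8.83 in HET. KO mice had 8.76, 9.08, 9.10, 8.87 and 8.49, all below the lowest WT mouse, though KO 3 by only 0.02. The change of -0.29 (SE 0.14) did not pass (limma adjusted p = 0.385).

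**Figure D3:**
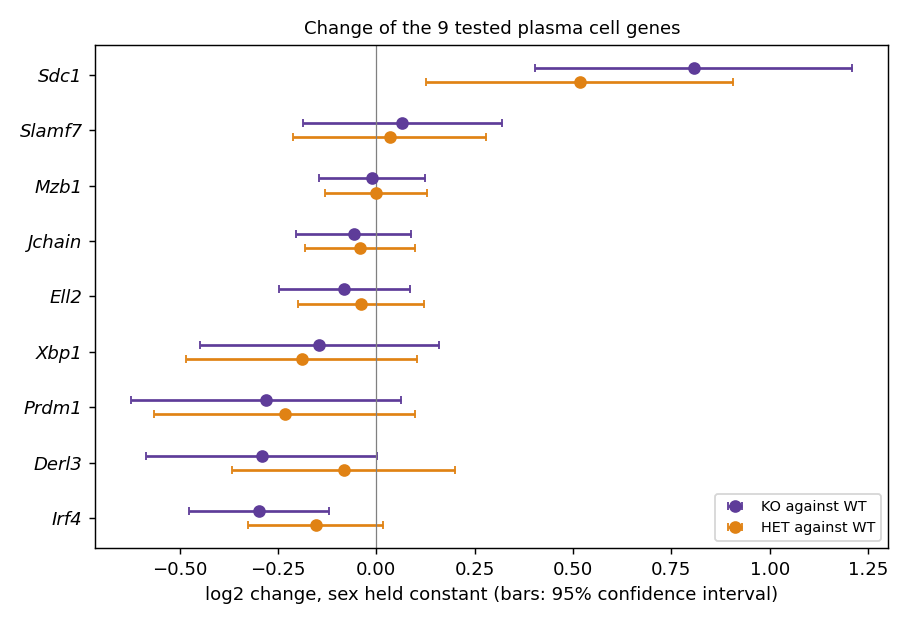
Log2 change with its 95% confidence interval (x axis) of the 9 tested genes (y axis) for KO against WT and HET against WT. Sdc1 is the only gene whose intervals lie above 0 in both comparisons, and the KO interval of Irf4 lies below 0.

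Several members had their extreme value in the same mouse. The share of all tested genes with their extreme in that mouse was not counted, so these counts are a description only. KO 5 had the lowest KO value for 7 of the 10 genes (Prdm1, Irf4, Sdc1, Tnfrsf17, Ell2, Slamf7 and Derl3). HET 2 had the highest HET value for 7 (Prdm1, Irf4, Xbp1, Sdc1, Tnfrsf17, Slamf7 and Derl3), and was highest both for Sdc1 and for Irf4. WT 4, the only male WT mouse, was lowest in its group for 5. The KO changes of Sdc1 and Irf4 had opposite signs, known when the members were picked, and that of Irf4 was not called. Both genes shared the highest HET mouse and the lowest KO mouse. For Irf4, KO 4 and KO 5 were both at 11.35 after rounding.

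Over the 14 arrays, with sex removed, the genes most like Sdc1 were H6pd, an endoplasmic reticulum enzyme that produces NADPH (Pearson r = 0.93), Eno2, a glycolytic enolase (0.90), and Lrrn3 (0.89). Most like Irf4 were Cd69, an early activation marker (0.90), Nsmaf (0.87) and 2210408K08Rik (0.87). These are the highest of all tested genes and include the difference between genotypes, so they are a description with no test. The KO changes of the first group were 0.35 for H6pd, 1.25 for Eno2 and 0.85 for Lrrn3, with limma adjusted p of 0.0746, 0.00605 and 0.0419. Those of the second were -0.52 for Cd69, -0.39 for Nsmaf and -0.30 for 2210408K08Rik, with limma adjusted p of 0.0496, 0.00682 and 0.324. With 1 mouse left out, the call of Lrrn3 held in 4 of 14 fits (without HET 1, HET 5, KO 4 or KO 5) and that of Cd69 in 2 of 14 (without HET 2 or KO 1). Irf4 is known to be raised in light zone cells, which receive selecting signals from T cells. Of 11 light zone markers tested 3 were called lower in KO, Nr4a1 (-0.86), Egr3 (-0.64) and Cd69, where 1.26% of all genes were. The other 8 did not pass, with values from -0.56 for Myc to -0.02 for Cd83, and the median of the 11 was -0.37. The call of Egr3 was lost without WT 1, WT 2, WT 3, WT 4 or KO 4. The summed linear intensity of the 11 was 37989 to 38900 in WT, 34916 to 38889 in HET and 30289 to 36085 in KO. The part of these genes in the Irf4 value was not tested. The 7 tested dark zone genes had a median KO change of 0.01, and 0 of them were called.

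Other genes of plasma cell differentiation gave 0 calls among 14 tested in KO against WT, with 7 positive and 7 negative values and a median of 0.01. The smallest p-values were those of Eaf2, a partner of ELL elongation factors (-0.13, SE 0.05, limma adjusted p = 0.283), Trp53inp1 (0.09, SE 0.09) and Bhlha15, which encodes the secretory cell factor MIST1 (-0.19, SE 0.21). Of 39 genes of the secretory apparatus and unfolded protein response 31 had a negative KO value (median -0.09), with 0 called. Herpud1, a stress-induced membrane protein of the endoplasmic reticulum, fell in the trend by 0.26 per floxed allele (SE 0.07, limma adjusted p = 0.0431), where 1.62% of genes were called as lower. With 1 mouse left out this call held only without HET 5, KO 4 or KO 5, and with both KO 3 and WT 4 left out the trend was -0.13 (limma adjusted p = 0.386). Immunoglobulin constant regions had 3 genes with a probe set of their own. Their KO values were -0.27 (SE 0.09) for Ighg3, -0.24 (SE 0.68) for Igha and -0.04 (SE 0.14) for Ighm, none called.

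BLIMP1 and its partners repress a set of B cell genes on the way to the plasma cell. Of 15 such genes tested, 12 had a negative KO value (median -0.11) and 0 were called. The smallest p-values were those of Cxcr5, the follicular homing receptor (-0.36, SE 0.10, limma adjusted p = 0.102), Ciita, the MHC class II transactivator (-0.34, SE 0.10, adjusted p = 0.121), and Cd22, a sialic acid-binding brake on the B cell receptor (-0.19, SE 0.07, adjusted p = 0.216). Among all genes tested 49.0% had a positive KO value.

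**Figure D4:**
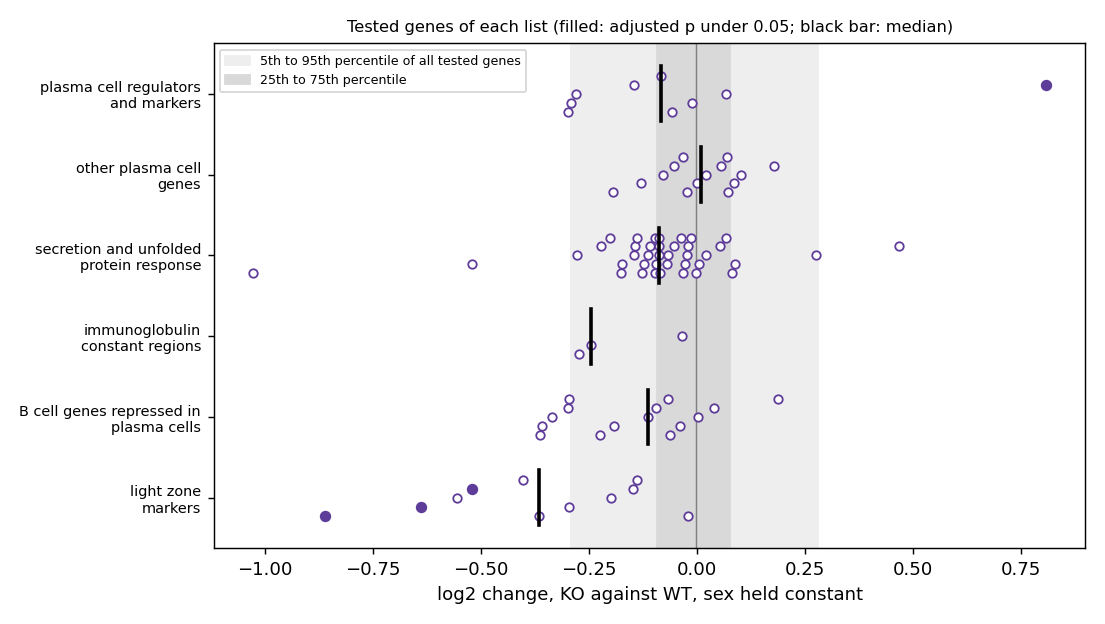
KO against WT log2 change (x axis) of the tested genes of 6 lists (y axis), filled where called, with the list median as a bar and the spread of all 10225 tested genes in grey. Sdc1 (0.81) lies furthest right, followed by Ern1 (0.47, not called) of the secretion list. The light zone markers lie to the left with a median of -0.37. The point furthest left is Ppp1r15a (-1.03, not called), also of the secretion list.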

How the data were processed

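Per the labels' protocols, 25 ng of total RNA from each mouse went into NuGEN Ovation amplification and biotin labelling. The authors deposited 1 log2 intensity for each probe set on each array. The submitters' processing notes name RMA (background correction, quantile normalisation and probe summary) without a version. RMA sets all arrays to nearly 1 distribution and compresses changes of dim probe sets.

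Gene names came from the platform annotation. Each gene was represented by its single-gene probe set with the highest mean, and entered the test where this mean lay above 6.43, which is the median over probe sets other than controls. Limma 3.58.1 in R 4.3.3 fitted group and sex over all 14 arrays, with Benjamini-Hochberg adjustment over every tested gene. A gene was called at an adjusted p under 0.05. For the trend the floxed allele number (0, 1 or 2) stood in for the group term. A separate limma fit took all 45037 non-control probe sets. Limma's fit was tested on simulated data. The members and lists were chosen with earlier results of these data known. Named outside the members are genes of 4 related lists that were called in any fit, otherwise the 3 with the smallest p in KO against WT, and the 3 genes most like Sdc1 and Irf4. Nr4a1, Egr3, Cd69, Myc, Cd83, Rgs13, Lat, Gzma, Nkg7, Lyz2, S100a9, Ern1 and Ppp1r15a were named after their values were seen. Alternatives covered the filter, the choice of probe set, normalisation, sex, variance model, array weights, groups fitted, the replicate block and each array left out.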

Additional observations from a re-analysis of the deposited data

Results flagged for a closer look

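Of 54 sets of values (18 probe sets in 3 groups), 5 held a mouse far from the others of its group, and chance flags about 1 in 20. HET 2 stood above the other HET mice for Irf4, at 11.71 against 11.55 to 11.58, and for Tnfrsf17, at 5.95 against 5.64 to 5.68. HET 4 stood above them for Ell2, at 11.69 against 11.53 to 11.57, and for Jchain, at 13.23 against 13.12 to 13.15. WT 4, the only male of its group, stood below the other WT mice for Slamf7, at 11.25 against 11.55 to 11.60. The causes were not tested.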

How the results depend on the processing

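Sdc1 kept its direction in KO against WT under the 27 alternatives that tested it, from 0.64 to 0.92, and Irf4 from -0.40 to -0.25. Sdc1 was no longer called, and 0 members were, with no expression filter (0.81, adjusted p = 0.0665), with the probe set of largest variance (0.75), in females alone (0.78), with array weights (0.64) and with both KO 3 and WT 4 left out (0.71), and the trend then called 0 members too. With the filter at the 75th percentile Sdc1 was not tested, and 0 members were called in either comparison. Without sex 2 members were called, Sdc1 and Irf4 (-0.31), in KO against WT and in the trend. Limma's trend and robust options also gave 2 in the trend. An exact two-sided permutation of the 9 KO and WT arrays gave p = 0.00794, the smallest the 126 splits allow, for both Sdc1 and Irf4 (-0.31). Ranges that do not overlap already make the observed split the most extreme on its side. The permutation is thus no support apart from that separation. With 1 mouse left out, 0 to 1 members were called in KO against WT and in the trend, and 0 in the other comparisons. The causes were not tested, except that a wider filter tests more genes and a subset fewer mice.

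Counts over all genes moved with the setting. KO against WT had 249 calls, but 117 with the 75th percentile filter, 145 with the largest variance, 79 in females, 98 with only the groups compared, 75 without KO 3 and WT 4, and 130 to 259 with 1 mouse left out. The trend had 311, but 151, 176, 113, 198 (array weights), 85 (without KO 3 and WT 4) and 164 to 300. KO against HET had 27, but 2 with no filter, 4, 6, 0 in females, 72 with array weights, 5 with only the groups compared, 16 with the replicate block, 13 without KO 3 and WT 4, and 0 to 25. HET against WT had 0, but 6 with array weights and 1 with the replicate block. Same-numbered mice were not treated as pairs in the main fit. Pairs were compared after the group means were taken out, but not sex. Of 13 same-numbered pairs 9 then correlated above 0.1, and the others went down to -0.17. No differently numbered pairs were set beside them, so whether the numbers pair the mice was not settled. With the replicate block Sdc1 was 0.86 (limma adjusted p = 0.0234).

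Of 953 alternative values of single genes 20 changed sign, all of values that were not called. Slamf7 became -0.00855 without sex, -0.012 with array weights and -0.089 without KO 3 and WT 4. Mzb1 became 0.0028 with array weights and 0.059 without KO 3 and WT 4, and Xbp1 0.071 in females and 0.073 without KO 3 and WT 4. Ighm became 0.0497 in females, 0.0012 with the replicate block and 0.017 without KO 3 and WT 4, and Ciita 0.13 with the largest variance. With 1 mouse left out, KO values ranged from -0.24 to 0.028 for Xbp1, -0.041 to 0.036 for Mzb1, -0.0042 to 0.13 for Slamf7, -0.00084 to 0.16 for Trp53inp1, -0.71 to 0.28 for Igha and -0.11 to 0.020 for Ighm. The number of arrays limits the precision.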
